A study of Mus musculus with 5 samples.

Results

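The expression of 10 receptor genes of the tumour necrosis factor (TNF) receptor and CD28 families was followed across 5 cultures of mouse CD4 T cells. They were Tnfrsf1b, Tnfrsf4, Tnfrsf8, Tnfrsf9, Tnfrsf18, Tnfrsf25, Cd27, Fas, Icos and Cd28. The genes were named by family and each was found through the RefSeq accession of its array probes, which gave 13 probes for the 10 genes, of 28325 probes for 21362 genes in all. The 5 cultures all began with naive CD4 T cells from the spleens of C57BL/6 mice, and each was measured on 1 Agilent array with Cy3-labelled RNA.

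The Th1reg culture was made by keeping rested cells for 4 days in the iTreg medium, which held TGF-b and IL-2, antibodies against CD3 and CD28, and antibodies that block IFNg and IL-4. It had spent 12 days in culture in all. The iTreg culture was naive cells after 4 days in that medium. The Th1+TGFb culture was Th1 cells moved without rest into that medium for another 4 days, which made 8 days in all. The rested culture was Th1 cells given 4 days with IL-2 and the IFN-g and IL-4 blocking antibodies but no antibody to CD3 or CD28, also 8 days in all. The Th1 culture was naive cells after 4 days with IL-12 and IL-2, antibodies against CD3 and CD28, and an IL-4 blocking antibody. The labels do not say how many mice or cultures were pooled for an array.

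T cells need a second, costimulatory signal besides that of the T cell receptor, and these receptors supply it or follow it. CD28 binds CD80 and CD86 on antigen-presenting cells, and ICOS is a relative of CD28 that appears after activation. Receptors of the TNF receptor family recruit TRAF adaptor proteins and feed into NF-kappaB, while Fas and the TNF receptors with a death domain can also start caspases. On CD4 T cells, OX40, CD137, GITR and CD30 are known as receptors induced by activation, and OX40 and GITR are also abundant on regulatory T cells.

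Promoter windows are shown for Tnfrsf9 and Tnfrsf18, which were highest and lowest in the same cultures, and for Tnfrsf8, which was above background in 2 cultures only. The sequences are RefSeq's, of build GRCm38.p6, and cover the 250 bases before an annotated transcript start, 5′ to 3′ on the gene's strand. These coordinates are those of the promoter table and not of the array probes, whose design names build mm9. Capitals mark matches to the kappaB consensus or to the AP-1 element TGANTCA, each searched on both strands. Tnfrsf9 has a window before the gene at chr4:150919905-150920154 on the plus strand, and another before a transcript that starts within the gene's span at chr4:150927749-150927998 on the plus strand. The Tnfrsf18 window lies at chr4:156026072-156026321 on the plus strand and the Tnfrsf8 window at chr4:145315165-145315414 on the minus strand.
Tnfrsf9, before the gene: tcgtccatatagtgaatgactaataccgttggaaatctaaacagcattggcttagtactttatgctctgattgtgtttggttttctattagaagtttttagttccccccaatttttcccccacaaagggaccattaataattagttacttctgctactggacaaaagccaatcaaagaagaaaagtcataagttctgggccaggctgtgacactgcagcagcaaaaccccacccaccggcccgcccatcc
Tnfrsf9, before the inner start: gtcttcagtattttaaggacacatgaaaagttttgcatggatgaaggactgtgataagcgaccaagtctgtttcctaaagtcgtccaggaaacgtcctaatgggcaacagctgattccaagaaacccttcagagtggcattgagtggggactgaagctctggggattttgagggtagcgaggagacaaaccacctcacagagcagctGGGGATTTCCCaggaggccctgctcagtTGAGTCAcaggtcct
Tnfrsf18: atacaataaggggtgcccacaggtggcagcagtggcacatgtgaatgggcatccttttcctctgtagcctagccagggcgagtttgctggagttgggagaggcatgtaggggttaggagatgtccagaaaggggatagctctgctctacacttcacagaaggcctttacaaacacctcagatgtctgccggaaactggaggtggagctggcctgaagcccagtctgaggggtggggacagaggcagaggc
Tnfrsf8: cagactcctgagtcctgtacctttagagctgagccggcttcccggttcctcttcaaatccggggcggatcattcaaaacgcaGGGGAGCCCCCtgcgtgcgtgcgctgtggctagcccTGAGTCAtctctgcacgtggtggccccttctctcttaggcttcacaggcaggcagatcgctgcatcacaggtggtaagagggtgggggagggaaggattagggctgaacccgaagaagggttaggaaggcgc
The inner Tnfrsf9 window held 2 overlapping kappaB matches, whose first bases lay 43 and 42 bases before the start, and an AP-1 match 15 bases before it. The Tnfrsf8 window held 2 overlapping kappaB matches at 168 and 167 bases before the start and an AP-1 match at 132. No match was found in the outer Tnfrsf9 window or in the Tnfrsf18 window. Tnfrsf4 was highest and lowest in the same cultures as Tnfrsf9 and Tnfrsf18. Its window, which is not shown and lies before a start within the gene's span, held 0 kappaB and 0 AP-1 matches. Over the 10 windows found for 8 of the genes, 3 held a kappaB match, 3 an AP-1 match and 2 both. Of 32817 promoter windows of the same length, 7.25% held a kappaB match and 6.75% an AP-1 match. A match is a stretch of letters and was not tested as a binding site.

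Each level below is a relative signal, the probe's background-corrected signal divided by the 75th percentile of all non-control spots on that array. Levels are compared between cultures for 1 gene, never between genes, since probes differ in brightness. With 1 array per culture there was no replicate and no test, so each difference is one between single arrays and may be that of 1 culture. Repeat spots of a probe on an array gave the technical spread alone, a median SD of 0.0509 to 0.0611 log2 units for signals of 100 or more and 0.164 to 0.195 below that. This is a spread within an array, and it leaves out differences between arrays, such as those of scaling. A difference of at least 2-fold was counted. A receptor not well above background on an array was raised to the lowest signal well above background there, where its own was below that, and its difference is written as "at least". Neighbours in the order of a gene's levels are said to differ beyond the technical spread where the gap passed 2 SD of a difference.

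The arrays had 62976 spots each, none saturated, and 45.7% to 48.7% of spots were well above background. All 5 lay on 1 slide with 1 scan time. All 11 T cell identity markers were well above background on every array. Foxp3, the defining regulatory T cell gene, was well above background at 17.4 in Th1reg and 38.2 in iTreg and on no other array. Of 8 B cell markers, Cd79a, Pax5 and Blk did not pass background in any culture, and the summed level of the list was 1.22 in Th1reg, 2.20 in iTreg, 3.43 in Th1+TGFb, 4.61 in rested and 1.34 in Th1. Of 12 myeloid and dendritic cell markers, Lyz2 did not pass background in any culture, and the sum was 413 in Th1reg, 920.2 in iTreg, 1164 in Th1+TGFb, 1742 in rested and 593 in Th1. The number of these markers well above background was 7 in Th1reg, 6 in iTreg, 9 in Th1+TGFb, 11 in rested and 6 in Th1. Of 6 CD8 T and NK cell markers, Klrb1c and Ncr1 did not pass background in any culture, and the sum was 2.34, 1.79, 11.2, 3.55 and 2.07 in the same order of cultures. Klra8 at 5.83 and Klri2 at 5.09 made up most of the Th1+TGFb sum. Cd8a was well above background in iTreg alone, at 0.820, although iTreg had the lowest sum, and Cd8b1 was highest in rested at 0.594. The part of such cells in the levels below was not tested.

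Tnfrsf4, Tnfrsf9 and Tnfrsf18 shared an order at its ends: all were highest in Th1 and lowest in rested, and this held under all 7 other ways of scaling or summarising the levels. These 7 were not all separate checks. Averaging a gene's probes changed nothing for Tnfrsf4 and Tnfrsf18, and the authors' value table was scaled close to the main setting. In rested minus Th1, Tnfrsf4 stood at -4.31 in the main setting and -4.36 with that table. Tnfrsf4 encodes OX40, a receptor of late T cell activation. Its level was 338 in Th1reg, 136 in iTreg, 341 in Th1+TGFb, 31.9 in rested and 631 in Th1. The Th1reg and Th1+TGFb levels did not differ beyond the technical spread, and each of the other neighbours in this order did. From highest to lowest Tnfrsf4 spanned 4.31 log2 units, and 2.60% of the 10714 genes well above background on all arrays had as wide a range. In a culture, fewer cells with a transcript and less of it per cell cannot be told apart, here and below.

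Tnfrsf9 encodes CD137, which is induced on activated T cells. Its level was 24.2 in Th1reg, 3.10 in iTreg, 39.1 in Th1+TGFb, 0.366 in rested and 52.5 in Th1. All neighbours in this order differed beyond the technical spread, with iTreg and rested far below the other cultures. The range of 7.17 log2 units was matched or passed by 0.28% of genes, against a median range of 1.29 over all genes. Tnfrsf9 had a second probe, which read 3.09 in Th1reg, 1.42 in iTreg, 2.0 in Th1+TGFb, 0.662 in rested and 3.59 in Th1. That probe kept Th1 highest and rested lowest but gave much smaller differences, and placed Th1reg above Th1+TGFb.

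Tnfrsf18 encodes GITR, known from both activated and regulatory T cells. Its level was 180.5 in Th1reg, 64.4 in iTreg, 144 in Th1+TGFb, 57.0 in rested and 285 in Th1. Each neighbour in this order differed beyond the technical spread, although iTreg and rested were only 0.18 log2 units apart. Tnfrsf18 lies next to Tnfrsf4 on chromosome 4 with 0 protein-coding genes between them in GRCm38.p6.

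Tnfrsf8, which encodes CD30, was the only receptor of the 10 that was not well above background on all arrays. It was well above background at 0.365 in Th1+TGFb and 0.321 in Th1, and read 0.0388 in Th1reg, 0.0169 in iTreg and 0.0234 in rested, where it was not. The Th1+TGFb and Th1 levels did not differ beyond the technical spread. Tnfrsf8 lies next to Tnfrsf1b on chromosome 4, and their levels did not run alike over the cultures.

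Tnfrsf1b and Tnfrsf25 had the narrowest ranges of the 9 receptors measured on all arrays, but not with spike-ins, where they spanned 2.74 and 2.20 log2 units and Cd27 1.40. With quantile normalization Tnfrsf18, at 1.61, also had a narrower range than Tnfrsf25, at 1.89. Tnfrsf1b encodes TNFR2, the TNF receptor without a death domain. Its level was 1.80 in Th1reg, 1.39 in iTreg, 1.14 in Th1+TGFb, 0.749 in rested and 0.841 in Th1. The cultures from the iTreg medium were the 3 highest, and all neighbours differed beyond the technical spread, Th1 and rested by only 0.167 log2 units with an SD of 0.0828. Its range of 1.27 log2 units was close to the median gene's, and the lowest culture was Th1 rather than rested under 2 of those 7 settings.

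Tnfrsf25 encodes DR3, a death-domain receptor that costimulates T cells when it binds TL1A. Its level was 26.0 in Th1reg, 53.5 in iTreg, 18.0 in Th1+TGFb, 40.4 in rested and 27.8 in Th1. The iTreg culture was the highest and Th1+TGFb the lowest under all 7 of them, and Th1reg and Th1 did not differ beyond the technical spread.

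Cd27 ran opposite to the activation-induced receptors at the rested end. CD27 is found on naive and early memory T cells and binds CD70. Its level was 1.79 in Th1reg, 3.90 in iTreg, 3.94 in Th1+TGFb, 13.1 in rested and 2.91 in Th1. Rested was the highest and Th1reg the lowest under all 7 other settings too. The range was 7.32-fold, or 2.87 log2 units, and 1.40 log2 units with spike-ins, and iTreg and Th1+TGFb did not differ beyond the technical spread. A second Cd27 probe read 1.34, 2.92, 2.77, 8.63 and 2.13 in the same order of cultures. The summed B cell and myeloid markers were also highest in rested and lowest in Th1reg. Some single markers had these ends too, such as Cd22, at 2.86 in rested and 0.441 in Th1reg, and Siglech, Csf3r and Itgam. Others did not: Cd74 was lowest in rested, Ebf1, Cd14 and H2-Aa were highest in Th1+TGFb, Cd79b in iTreg and H2-Ab1 in Th1. Siglech, Csf3r and Itgam, at 698, 574 and 459 in rested, made up most of the myeloid sum.

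Fas encodes the death receptor through which Fas ligand kills activated T cells. Its level was 2.87 in Th1reg, 7.01 in iTreg, 15.1 in Th1+TGFb, 7.30 in rested and 8.75 in Th1. Th1+TGFb was the highest under all settings, iTreg and rested did not differ beyond the technical spread, and Th1reg stood below the rest except with scaling to spike-in controls, where rested was lowest. The Fas probe had 2 spots on each array, which differed by 0.0053 to 0.128 log2 units.

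Icos and Cd28, whose genes flank Ctla4 on chromosome 1, did not share a pattern. The Icos level was 24.0 in Th1reg, 26.8 in iTreg, 34.3 in Th1+TGFb, 31.1 in rested and 110 in Th1. Th1 alone stood high, and the other 4 cultures lay within 0.52 log2 units of each other, with Th1+TGFb and rested not beyond the technical spread. With spike-ins rested was the lowest, at -3.0 log2 units against Th1, while iTreg was at -1.74. A second Icos probe gave 6.79, 8.26, 10.4, 9.11 and 38.9 in the same order of cultures.

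Cd28 encodes the main costimulatory receptor of naive T cells. Its level was 28.1 in Th1reg, 27.5 in iTreg, 108 in Th1+TGFb, 71.9 in rested and 104 in Th1. The 2 cultures with Foxp3 above background had levels that did not differ beyond the technical spread, both below the other 3 cultures, while Th1+TGFb and Th1 did not differ beyond it either. With spike-in scaling rested was the lowest culture instead. Ctla4, which encodes the inhibitory relative of CD28, was at 12.7 in Th1reg, 5.13 in iTreg, 20.7 in Th1+TGFb, 6.76 in rested and 22.8 in Th1.

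Counted over the 10 receptors, Th1reg held the highest level of 1, iTreg of 1, Th1+TGFb of 3, rested of 1 and Th1 of 4. Of the 9 measured on all arrays, Th1reg held the lowest level of 3, iTreg of 1, Th1+TGFb of 1, rested of 4 and Th1 of 0. The Th1+TGFb levels of Tnfrsf8 and Cd28 did not differ from those of Th1 beyond the technical spread, and with spike-ins Th1+TGFb was highest in 1 receptor and Th1 in 6, and rested was lowest in 7. How often all genes were highest or lowest in each culture is not given here, so these counts cannot be called particular to the receptors. In rested against Th1 26.7% of all genes were at least 2-fold lower.

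**Figure D1:**
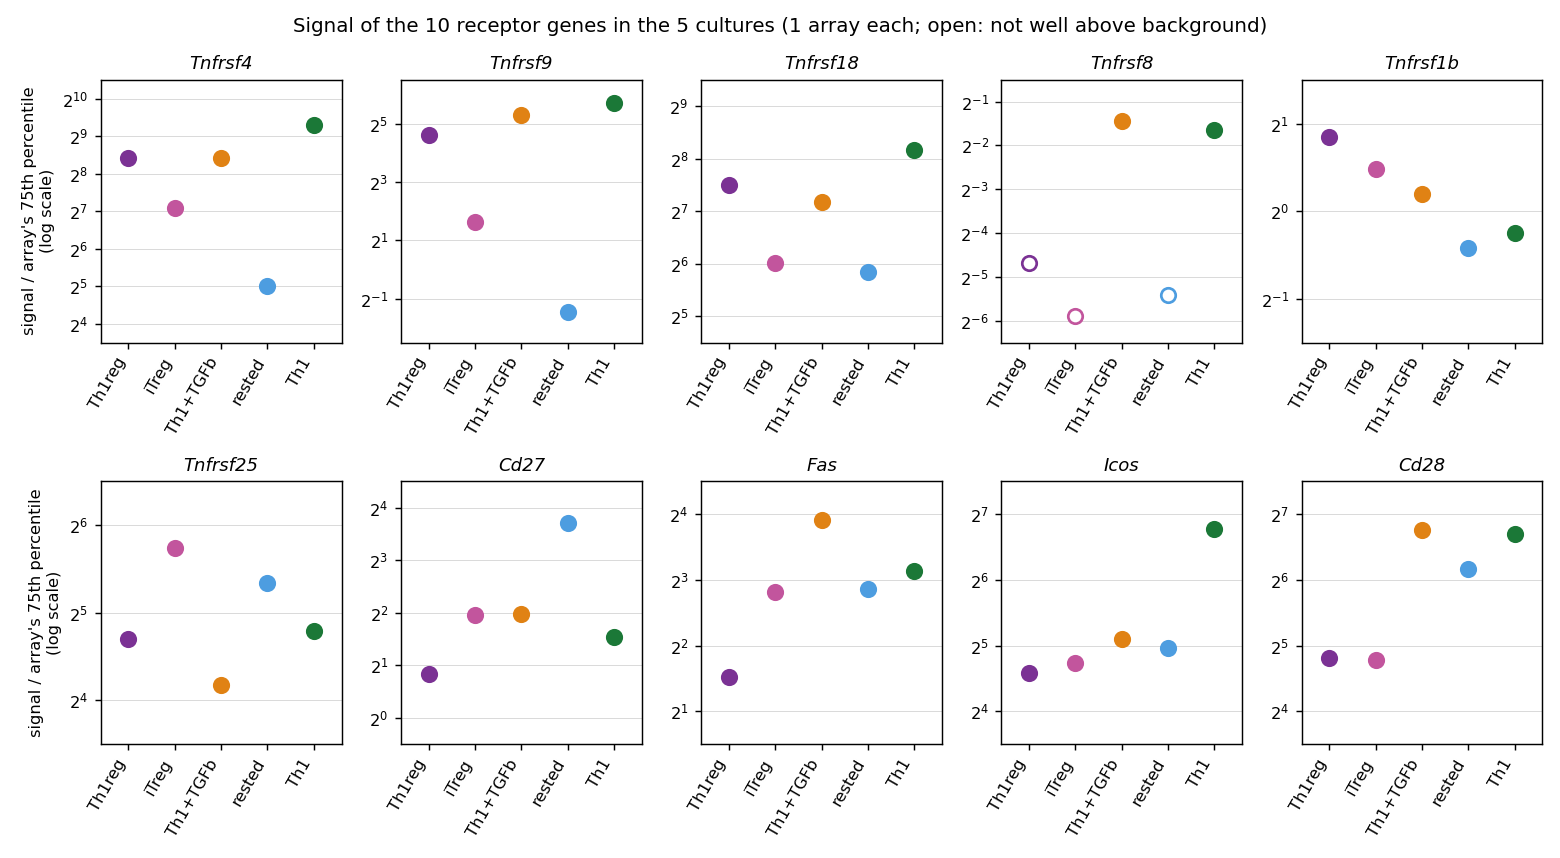
Relative signal of each of the 10 receptors on a log axis, with 1 point per array in the order Th1reg, iTreg, Th1+TGFb, rested and Th1; open points were not well above background. Tnfrsf9 spans the widest range, 0.366 in rested to 52.5 in Th1, and Cd27 is highest in rested at 13.1.

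The iTreg and Th1 cultures show what either medium gave from naive cells. In iTreg against Th1, 0 receptors were higher and 6 were lower, against 10.8% and 17.8% of 13152 genes and 28.6% in either direction. Tnfrsf9 was 16.9-fold lower, Tnfrsf4 4.63-fold, Tnfrsf18 4.43-fold, Icos 4.10-fold and Cd28 3.78-fold lower, and Tnfrsf8 at least 4.08-fold lower. The dimmer Tnfrsf9 probe gave -1.34 on the log2 scale, against -4.08 for the brighter one. The other 4 receptors lay between -0.32 (Fas) and 0.94 (Tnfrsf25). The median of the 10 was -1.97, against -0.23 for all genes. The higher genes made up 37.9% of all genes 2-fold apart, and 28.9% to 64.5% over the 8 other settings, with 6 receptors lower under each of them and 0 to 2 higher. Tnfrsf1b at 1.11 and Tnfrsf25 at 1.32 were 2-fold higher with the 75th percentile of detected probes, and at 1.02 and 1.24 with spike-ins.

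The next comparison was of Th1 cells after a rest without anti-CD3/CD28. In rested against Th1, 1 receptor was higher and 5 were lower, against 17.6% and 26.7% of 13229 genes and 44.3% in either direction. Tnfrsf9 was 143-fold lower by its brighter probe, a log2 difference of -7.17 with a technical SD of 0.20, and -2.44 by its dimmer probe. Tnfrsf4 was 19.8-fold, Tnfrsf18 5.01-fold and Icos 3.53-fold lower, and Tnfrsf8 at least 3.01-fold lower. The Tnfrsf8 bound is that of the main setting, and with normexp background correction the log2 difference was -0.61, which was not 2-fold. Cd27 was 4.49-fold higher. The median of the 10 was -1.06, against -0.29 for all genes. The share of higher genes was 39.7%, against 6.28% with spike-ins, which moved every gene by -1.18 log2 units and left 0 receptors higher and 8 lower, and 65.3% with the 75th percentile of detected probes.

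Th1 cells that went into the iTreg medium without rest were then set against the Th1 cells they came from. In Th1+TGFb against Th1, 0 receptors were higher and 1 was lower, against 11.4% and 7.79% of 13054 genes and 19.2% in either direction. Icos was 3.20-fold lower. Tnfrsf18 at -0.98 and Tnfrsf4 at -0.89 lay just under the 2-fold limit, and Fas at 0.79 was the largest difference upward. Tnfrsf9 differed by -0.43 and Cd28 by 0.06. The median of the 10 was -0.18 and that of all genes -0.20. The share of higher genes was 59.3%, and 26.2% to 78.5% over the other settings, with 0 or 1 receptor higher and 1 to 3 lower. Th1 stands in all 3 of these comparisons, so they are not independent of each other.

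The same medium after rest was set against the rested cells. In Th1reg against rested, 4 of 9 receptors were higher and 3 lower, against 27.7% and 20.0% of 13331 genes, and 47.7% of genes were 2-fold apart in either direction. Tnfrsf9 was 66.2-fold higher, with a log2 difference of 6.05 by the brighter probe and 2.22 by the dimmer. Tnfrsf4 was 10.6-fold, Tnfrsf18 3.17-fold and Tnfrsf1b 2.40-fold higher. Cd27 was 7.32-fold, Cd28 2.56-fold and Fas 2.54-fold lower. Icos at -0.37 and Tnfrsf25 at -0.64 were not 2-fold apart, and Tnfrsf8 did not pass background in either culture. The share of higher genes was 58.0%, against 92.9% with spike-ins, which moved every gene by 1.47 log2 units and put Fas at 0.13 and Cd28 at 0.12, and 36.5% with the 75th percentile of detected probes. Over the 8 other settings 3 to 5 receptors were higher and 1 to 5 lower. The Cd27 difference lay between -3.38 and -1.40 over the 8 other settings.

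The next comparison set the 2 ways of moving Th1 cells into the iTreg medium side by side. In Th1reg against Th1+TGFb, 0 receptors were higher and 4 lower, against 12.3% and 15.1% of 13212 genes and 27.5% in either direction. Fas was 5.27-fold, Cd28 3.86-fold and Cd27 2.21-fold lower, and Tnfrsf8 at least 5.70-fold lower. Tnfrsf4 differed by -0.01, Tnfrsf18 by 0.32 and Tnfrsf25 by 0.53. For Tnfrsf9 the probes had opposite signs, -0.69 by the brighter and 0.63 by the dimmer. The cultures also differed in days, 12 for Th1reg and 8 for Th1+TGFb, so rest and time cannot be told apart. The share of higher genes was 44.8%, and 27.6% to 83.1% over the other settings, with 0 to 2 receptors higher and 3 or 4 lower. With spike-ins Tnfrsf1b at 1.29 and Tnfrsf25 at 1.16 were 2-fold higher and Cd27 stood at -0.51.

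Another set the 2 cultures with Foxp3 above background against each other. In Th1reg against iTreg, 3 of 9 receptors were higher and 3 lower, against 15.8% and 12.2% of 13184 genes and 28.0% in either direction. Tnfrsf9 was 7.82-fold, Tnfrsf18 2.80-fold and Tnfrsf4 2.48-fold higher. Fas was 2.44-fold, Cd27 2.18-fold and Tnfrsf25 2.06-fold lower. Cd28 at 0.03 and Icos at -0.16 were not 2-fold apart. With a 3-fold limit Tnfrsf9 was the only receptor counted, by its brighter probe at 2.97 on the log2 scale. The dimmer Tnfrsf9 probe gave 1.12, which is under that limit. The share of higher genes was 56.5%, and 31.1% to 67.0% over the other settings, with 2 to 4 receptors higher and 2 or 3 lower.

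The last gave the net difference between the last and the first stage of the Th1 line. In Th1reg against Th1, 1 receptor was higher and 5 lower, against 6.28% and 8.57% of 12867 genes and 14.9% in either direction. Icos was 4.58-fold, Cd28 3.70-fold, Fas 3.05-fold and Tnfrsf9 2.17-fold lower, and Tnfrsf8 at least 5.01-fold lower. Tnfrsf1b was 2.14-fold higher. Tnfrsf4 at -0.90, Cd27 at -0.70 and Tnfrsf18 at -0.66 were not 2-fold apart. The dimmer Tnfrsf9 probe gave -0.22, against -1.12 for the brighter. The median of the 10 was -1.01, against 0.01 for all genes. The share of higher genes was 42.3%, and 39.5% to 64.9% over the other settings, with 0 or 1 receptor higher and 4 or 5 lower.

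**Figure D2:**
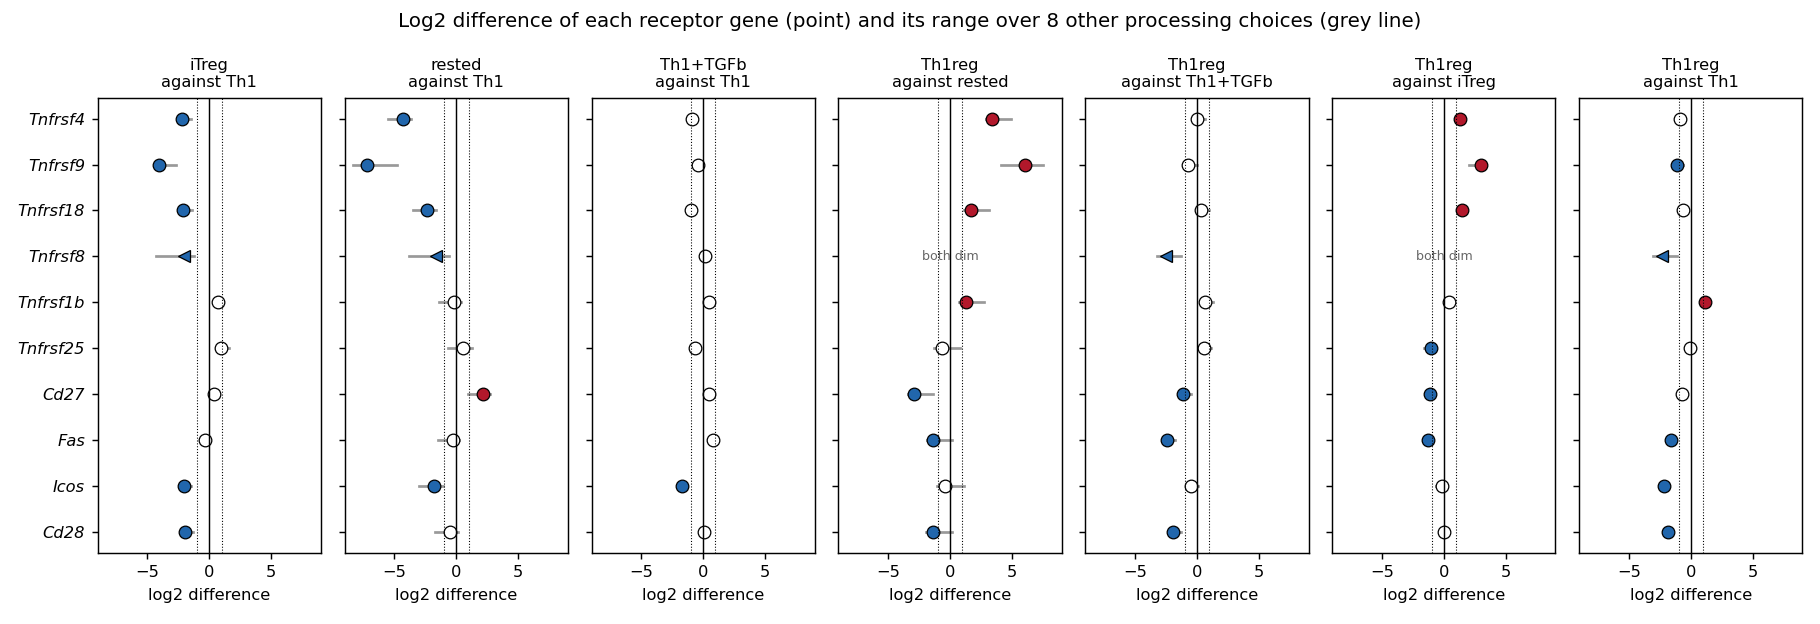
Log2 difference of each receptor in the 7 comparisons, with 1 point per receptor and the grey line its range over the 8 other settings; red points are at least 2-fold higher, blue at least 2-fold lower, open points neither, and triangles are bounds. The longest differences are those of Tnfrsf9, -7.17 in rested against Th1 and 6.05 in Th1reg against rested.

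The iTreg medium was entered from 2 starts, and these pairs share no array. Each culture after the medium was also older than its start, 12 against 8 days for Th1reg and rested and 8 against 4 for Th1+TGFb and Th1. Medium and time therefore cannot be told apart. The rested cells had also been without the antibodies against CD3 and CD28 that the medium held. Tnfrsf4 differed by 3.41 log2 units with the medium in rested cells (Th1reg minus rested) and by -0.89 in unrested cells (Th1+TGFb minus Th1). Tnfrsf9 differed by 6.05 in rested and -0.43 in unrested cells, and Tnfrsf18 by 1.66 in rested and -0.98 in unrested cells. These 3 receptors were higher after the medium where the cells had rested and not where they had not. Cd27 differed by -2.87 in rested and 0.44 in unrested cells, and Fas by -1.34 in rested and 0.79 in unrested cells. Tnfrsf1b, at 1.26 in rested and 0.44 in unrested cells, had the same sign at both starts, as did Tnfrsf25 at -0.64 in rested and -0.62 in unrested cells and Icos at -0.37 in rested and -1.68 in unrested cells. With spike-ins Tnfrsf25 stood at 0.84 in rested and -0.96 in unrested cells and Icos at 1.1 in rested and -2.02 in unrested cells, so both then had opposite signs. Over the 9 receptors measured at both starts 6 had opposite signs, against 71.3% of 12585 genes, so the receptors' share was no higher than that of all genes. Cd28 was the other receptor of the 6, at -1.36 in rested and 0.06 in unrested cells, the last of these within the technical spread.

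**Figure D3:**
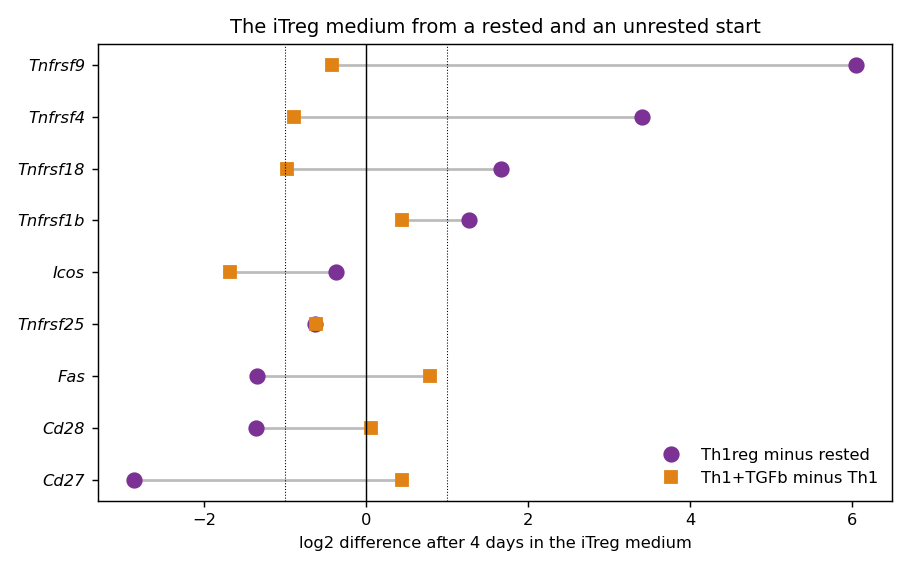
Log2 difference with the iTreg medium for 9 receptors, in rested cells (Th1reg minus rested) beside unrested cells (Th1+TGFb minus Th1). Tnfrsf9 and Tnfrsf4 lie far above 0 in rested cells, at 6.05 and 3.41, and below 0 in unrested cells, at -0.43 and -0.89.

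Ligands of these receptors were read on the same arrays, and they are named for the pairing with a receptor after their values were seen. Cd70, the ligand of CD27, was at 5.43 in Th1reg, 0.235 in iTreg, 2.30 in Th1+TGFb and 0.176 in Th1, and read 0.126 in rested, where it was not well above background. Fasl, the ligand of Fas, was at 17.5 in Th1reg, 0.998 in iTreg, 9.03 in Th1+TGFb, 7.29 in rested and 4.17 in Th1. Th1reg thus had the lowest Cd27 and Fas and the highest Cd70 and Fasl, except that rested had the lowest Fas with spike-ins.

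Tnf, a ligand of TNFR2, was at 29.2 in Th1reg, 10.1 in iTreg, 42.2 in Th1+TGFb, 1.68 in rested and 13.1 in Th1. Lta, which also binds TNFR2, was at 256 in Th1reg, 37.4 in iTreg, 14.3 in Th1+TGFb, 3.94 in rested and 62.1 in Th1. Both were lowest in rested. Tnfsf9, the ligand of CD137, was at 3.28 in Th1reg, 2.26 in iTreg, 6.43 in Th1+TGFb, 0.763 in rested and 3.01 in Th1. Tnfsf8, the ligand of CD30, was at 1.72 in Th1reg, 4.51 in iTreg, 3.85 in Th1+TGFb, 11.7 in rested and 10.8 in Th1. Tnfsf8 was thus high in rested, where its receptor was not well above background, and Tnfsf9 was lowest in rested together with its receptor. Tnfsf4, the ligand of OX40, was highest at 1.14 in Th1+TGFb and did not pass background in rested. Tnfsf18, the ligand of GITR, did not pass background in any culture.

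**Figure D4:**
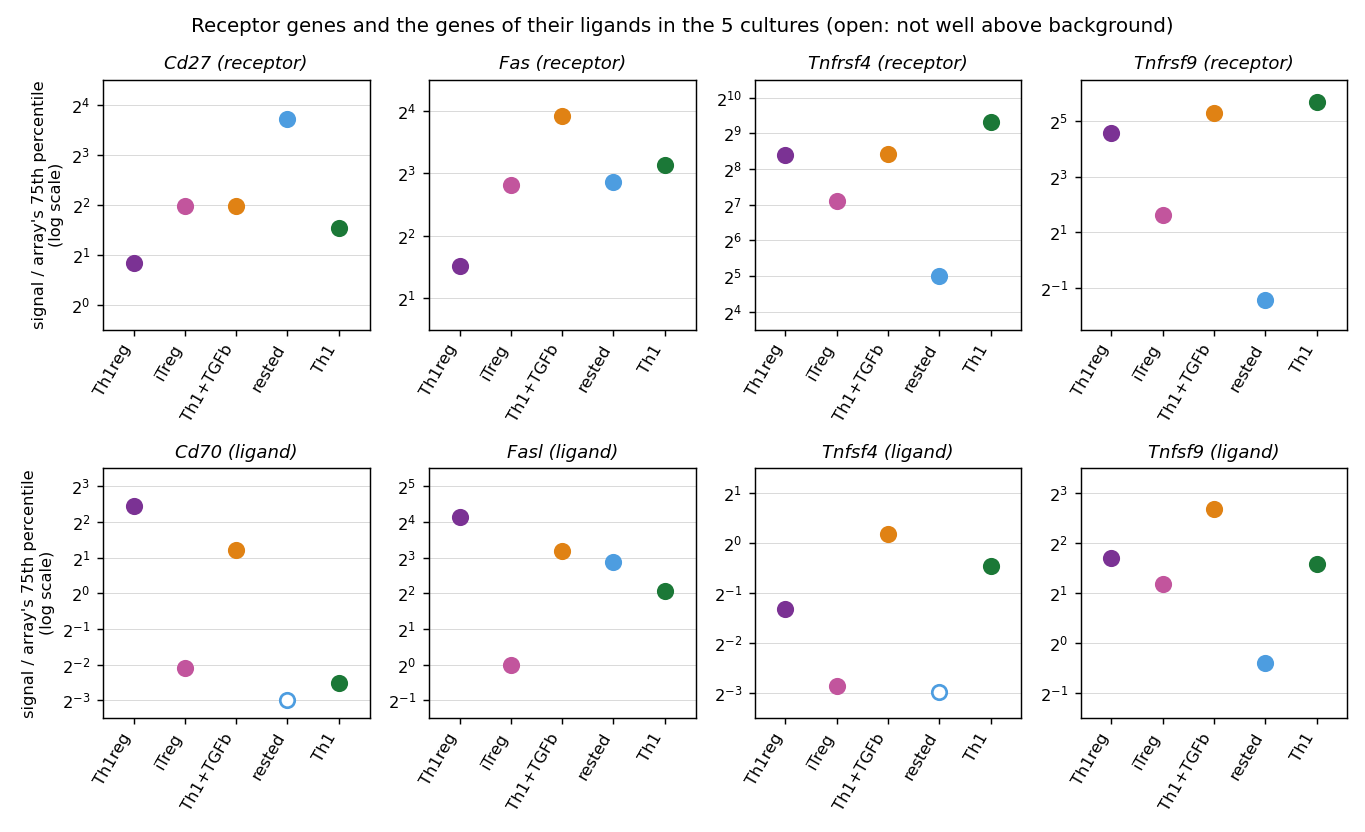
Relative signal of receptors and their paired ligands on a log axis, 1 point per array in the order Th1reg, iTreg, Th1+TGFb, rested and Th1; open points were not well above background. Cd70 is highest in Th1reg at 5.43, where Cd27 is lowest at 1.79.

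Other genes of the pathway were counted in 6 lists of 98 genes, 96 with a probe. Among the TNF-family ligands, 10 of 15 were higher and 3 lower in Th1reg against rested, with Lta 65.0-fold, Tnfsf11 41.1-fold and Tnf 17.4-fold higher and Cd70 at least 43.2-fold higher, and the median was 1.65 against 0.29 for all genes. In Th1reg against Th1 8 of 15 were higher and 2 lower, with Tnfsf11, which encodes RANKL, at least 131-fold and Cd70 31.0-fold higher and Tnfsf8 6.28-fold lower, and the median was 1.16 against 0.01. In Th1+TGFb against Th1 9 of 15 were higher and 2 lower, with Tnfsf11 at least 63.9-fold higher and Lta 4.35-fold lower. In Th1reg against iTreg 8 of 15 were higher and 2 lower, with Cd70 23.1-fold and Fasl 17.6-fold higher. In iTreg against Th1 1 of 14 was higher and 4 lower, against 10.8% and 17.8% of all genes. The shares of all genes higher and lower were 27.7% and 20.0% in Th1reg against rested and 6.28% and 8.57% in Th1reg against Th1. They were 11.4% and 7.79% in Th1+TGFb against Th1 and 15.8% and 12.2% in Th1reg against iTreg. Where more ligands were higher than lower in these comparisons, this stayed so under all 7 other scalings. The number higher fell to 6 in Th1+TGFb against Th1 with spike-ins, and was 7 at its lowest in Th1reg against iTreg.

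Genes of death-domain signalling were counted next. In rested against Th1 0 of 13 were 2-fold higher and 6 lower, where 17.6% and 26.7% of all genes were, among them Mlkl, the executor of necroptosis, 9.99-fold and Ripk3 3.88-fold lower, with a median of -0.98 against -0.29 for all genes. In Th1reg against rested 7 were higher and 0 lower, where 27.7% and 20.0% of all genes were, with Mlkl 7.82-fold, Ripk3 3.83-fold and Fadd, the adaptor that joins Fas to caspases, 3.42-fold higher, with a median of 1.03 against 0.29. Over the 7 other scalings 3 to 11 were lower in rested against Th1 and 5 to 13 higher in Th1reg against rested. In iTreg against Th1 0 of 13 were higher and 2 lower, where 10.8% and 17.8% of all genes were, and Mlkl was 35.1-fold lower.

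TRAF adaptors and NF-kappaB genes had 1 higher and 6 lower of 20 in rested against Th1, a share of lower genes near the 26.7% of all genes and one that ran between 3 and 18 genes over the other scalings, with Traf4 5.45-fold, Nfkb2 4.46-fold and Relb 3.50-fold lower and Traf5 3.86-fold higher. In Th1reg against rested 7 were higher and 1 lower, where 27.7% and 20.0% of all genes were, with Nfkb2 5.0-fold and Relb 3.80-fold higher. With the 75th percentile of detected probes, however, 3 were higher and 4 lower. Tnfaip3, an inhibitor of NF-kappaB, was 4.37-fold higher in Th1+TGFb than in Th1. The list of other TNF receptors gave 5 higher and 0 lower of 15 in Th1+TGFb against Th1, where 11.4% and 7.79% of all genes were. Cd40 was at least 4.04-fold and Tnfrsf1a 2.30-fold higher there, and with spike-ins 2 genes of the list were higher and 2 lower. In iTreg against Th1 Cd40 was higher by at least 41.7-fold. Among 17 CD28 and ICOS proximal signalling genes, 2 were higher and 3 lower in iTreg against Th1, near the 10.8% and 17.8% of all genes, and Malt1, which links CD28 to NF-kappaB, was 3.95-fold lower in iTreg, 3.32-fold lower in rested and 2.85-fold lower in Th1reg, each against Th1. In the CD28 family and B7 ligands, 2 of 8 were higher and 4 lower in rested against Th1, against 17.6% and 26.7% of all genes, and 0 higher and 6 lower with spike-ins. Of these, Pdcd1lg2, which encodes PD-L2, was 33.2-fold lower in rested than in Th1 and 59.3-fold higher in Th1reg than in rested.

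Likeness is given for the 4 receptors of widest range, as the root mean square difference of log2 levels over the 5 arrays after centring each gene, among 10548 genes. Nearest to Tnfrsf9 were Tubb6 at 0.38, Crabp2 at 0.60 and Slc4a11 at 0.71, and nearest to Tnfrsf4 were Ehd4 at 0.19, Irf4 at 0.22 and Fdps at 0.23. Cd27 was most like Gpr137b at 0.05, Tmem63a at 0.14 and AI504432 at 0.14. Fas was most like Phxr4 at 0.14, Icosl at 0.19 and Mapre3 at 0.23. With 5 arrays and so many genes some profiles will be close, and no more than the profile is meant.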

How the data were processed

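Per the file headers, the authors deposited the output of Agilent Feature Extraction 10.7.1.1, whose processed signal is a linear intensity with the background subtracted and no scaling between arrays. The submitters' processing notes name the same version. The series' value table also holds deposited intensity: each column equals the processed signal divided by 1 constant for 99.7% to 99.8% of probes within 0.01 log2 units. Its scale and direction are known and genes are not centred. The origin of the constants is not stated, but each lay close to its array's 75th percentile over probes. For Th1reg the constant was 258.6 and that percentile 259.4, and for rested they were 128.2 and 128.4. The 75th percentile of a column was 1.002 to 1.005. The column medians were 0.0693 for Th1reg, 0.0925 for iTreg, 0.103 for Th1+TGFb, 0.123 for rested and 0.0762 for Th1.

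Control spots and the 109 to 142 outlier spots per array were left out, spots of a probe averaged, and each value divided by its array's 75th percentile of non-control spots. The 75th percentile signals were 307 for Th1reg, 271 for iTreg, 198 for Th1+TGFb, 144 for rested and 240 for Th1. Of 55681 probes, 28325 matched a gene of the GRCm38.p6 table by accession. The probe of highest mean signal stood for a gene. A comparison used the genes well above background on at least 1 of its arrays.

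The receptors and gene lists were chosen with earlier results of these data known. Named were all 10 receptors, per list up to 4 genes with the largest differences of at least 2-fold, and for the 4 receptors of widest range the 3 nearest genes. Some list genes that this rule would name are not reported here. With 1 array per culture no test was made. Tools were Python 3.11.15 with numpy 2.4.6 and pandas 2.3.3, and limma 3.58.1 in R 4.3.3 for normexp background correction with an offset of 50, run on the median signal and median background in place of the mean signal planned, which was not used here. The counting of differences was tested on simulated data. The number of arrays limits the precision.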

Additional observations from a re-analysis of the deposited data

Results flagged for a closer look

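For 5 receptors the log2 difference between a culture after the iTreg medium and its start had opposite signs in rested cells (Th1reg minus rested) and in unrested cells (Th1+TGFb minus Th1). Both values were beyond the technical spread. Tnfrsf4 stood at 3.41 in rested and -0.89 in unrested cells, Tnfrsf9 at 6.05 in rested and -0.43 in unrested cells, and Tnfrsf18 at 1.66 in rested and -0.98 in unrested cells. Cd27 stood at -2.87 in rested and 0.44 in unrested cells, and Fas at -1.34 in rested and 0.79 in unrested cells. Each value is a difference between single arrays, and the difference between the starts was not tested. By sign alone 6 of 9 receptors were opposite, Cd28 among them at -1.36 in rested and 0.06 in unrested cells, and so were 71.3% of 12585 genes. With spike-in scaling Fas stood at 0.13 in rested and 0.45 in unrested cells, so its signs were then alike, and the signs of the other 4 stayed opposite.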

How the results depend on the processing

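Over the 8 other ways of scaling or summarising, 26 of the 36 receptor differences of at least 2-fold were 2-fold apart in the same direction every time, and 2 changed sign. The authors' value table, among these 8, was scaled close to the main setting, and averaging probes left a receptor with a single probe unchanged. Of the 32 smaller differences, 13 reached 2-fold under at least 1 setting. The sign changes were Fas at 0.13 and Cd28 at 0.12 in Th1reg minus rested with spike-ins, where every measured gene moved by 1.47. The number of receptors 2-fold apart in Th1+TGFb against Th1 was 1, and became 2 when scaled to the 75th percentile of detected probes, 2 with normexp or the authors' value table, 3 with spike-ins and 5 at a 1.5-fold limit. At a 3-fold limit 4 in place of 7 were counted in Th1reg against rested and 1 in place of 6 in Th1reg against iTreg. The 1.5-fold and 3-fold counts differ by construction. The spike-in shift follows from 8 control probes, and its cause was not tested. Values near background, such as those of Tnfrsf8, are limited by signal, and the "at least" of its differences holds for the main setting. With normexp Tnfrsf8 stood at -1.20 in iTreg minus Th1 and -0.61 in rested minus Th1. It stood at -1.32 in Th1reg minus Th1+TGFb and -1.14 in Th1reg minus Th1. No paired analysis was possible because each culture had 1 array and the results come from no test. Leaving out a replicate and blocking by slide were not possible for the same reason, with all 5 arrays on 1 slide.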
